A study of Mus musculus with 4 samples.

Results

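The genes that carry a long-chain fatty acid from the cell surface to its active form were followed in cardiac mesenchymal progenitors (CMPs) after transduction of the reprogramming factors. The 10 genes were the fatty acid binding proteins Fabp3, Fabp4 and Fabp5, the membrane proteins of uptake Cd36, Slc27a1 and Slc27a4, and the long-chain acyl-CoA synthetases Acsl1, Acsl3, Acsl4 and Acsl5. Members were the probes whose gene name on the array was one of these names. This gave 12 probes for 10 genes, out of 16657 genes with a named probe above background, and all 10 genes passed the filter on dim probes.

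CMPs are Sca-1+ cells grown from adult C57BL/6 mouse hearts, by the study's methods from the atria. The CMP control was left untreated and is labelled as day 0. OSKM-CMPs carried Oct4, Sox2, Klf4 and c-Myc from Sendai virus and were sampled on day 4, day 6 and day 8, after a change to reprogramming medium without leukemia inhibitory factor on the day after transduction. All cells came from the same wild-type strain, and the OSKM-CMPs shared the virus and the medium. The virus was not restricted to a cell type, and nothing in the labels says whether cultures were pooled. The control had 1 time point, so days in culture, medium, virus and factors cannot be told apart.

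A long-chain fatty acid is released from circulating triglyceride by lipoprotein lipase, crosses the plasma membrane with the help of CD36 and fatty acid transport proteins, and is held in the cytosol by small binding proteins. Acyl-CoA synthetases then join it to coenzyme A, which traps it in the cell and opens the way to triglyceride, membrane lipid or oxidation. Adipocytes and heart muscle are known for high expression of several of these proteins, and many of the genes are known targets of the nuclear receptors of the PPAR family.

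RNA was read in 1 colour (Cy3) on a mouse whole-genome array, with 4 arrays in 1 scan, 1 per condition. A level is the log2 processed signal of a gene minus the 75th percentile of its array, so 0 marks that percentile. Levels of different genes come from different probes and are not compared with each other. The error (±) is 1 SD from the scanner software's error model and covers neither cultures nor RNA preparation. No condition had a replicate and each of these probes had 1 spot per array, so no test between conditions was possible and no p-value is given. A gene is said to rise or fall where its level moved by at least 2-fold, a log2 change of 1 or more, and the counts are read against the share of all genes that did so in the same comparison. The share of probes read well above background ran from 56.6% to 59.6% over the arrays, and 0 were saturated.

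Markers of the labelled cell type were read on every array. All 10 markers of mesenchymal progenitors were above background on all 4 arrays. Ly6a, which encodes Sca-1, had a level of 4.65 in the control and 7.35 at day 8. The list did not move as one, with 3 higher and 2 lower at day 8 and a median change of -0.12. Of all genes, 12.3% rose and 10.6% fell at day 8. Of 8 adipocyte markers, 4 were above background in the control, 7 on day 4, 7 on day 6 and 8 on day 8. A gene counts here if any of its probes passed. Retn is 1 of the 4 in the control, yet its mean level there was -5.84. That is under -5.22, the lowest level well above background on that array. The summed linear level of the 8 markers was 2.68 in the control, 28.2 on day 4, 94.7 on day 6 and 211 on day 8. It grew over each interval, as Fabp4 did, while Fabp3 was near its top by day 4 and Acsl1 was near its control level then. Most of the day 4 sum came from Pparg, with a level of 4.63. Adipoq, Plin1, Cfd and Lep were not well above background in the control. The part of this list in the rises was not tested. In bulk RNA, more cells of a type and more RNA per cell cannot be told apart.

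Among the 10 genes, 3 rose by day 4, 6 by day 6 and 6 by day 8, against 10.1%, 11.1% and 12.3% of all genes. None fell at day 4 or day 8 and 1 fell at day 6, where 8.28%, 10.6% and 9.98% of all genes did so, for day 4, day 8 and day 6 in that order. The median change of the 10 genes from the CMP control was 0.48 on day 4, 1.37 on day 6 and 1.20 on day 8 on the log2 scale, and that of all genes lay between -0.03 and -0.01. The 6 genes that rose were all 3 binding proteins, Cd36, Slc27a1 and Acsl1. The other 4, Slc27a4, Acsl3, Acsl4 and Acsl5, had changes below 0 on all 3 days, so the members did not move as one group. The comparisons of day 4, day 6 and day 8 share the control array, and their values are not independent.

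**Figure D1:**
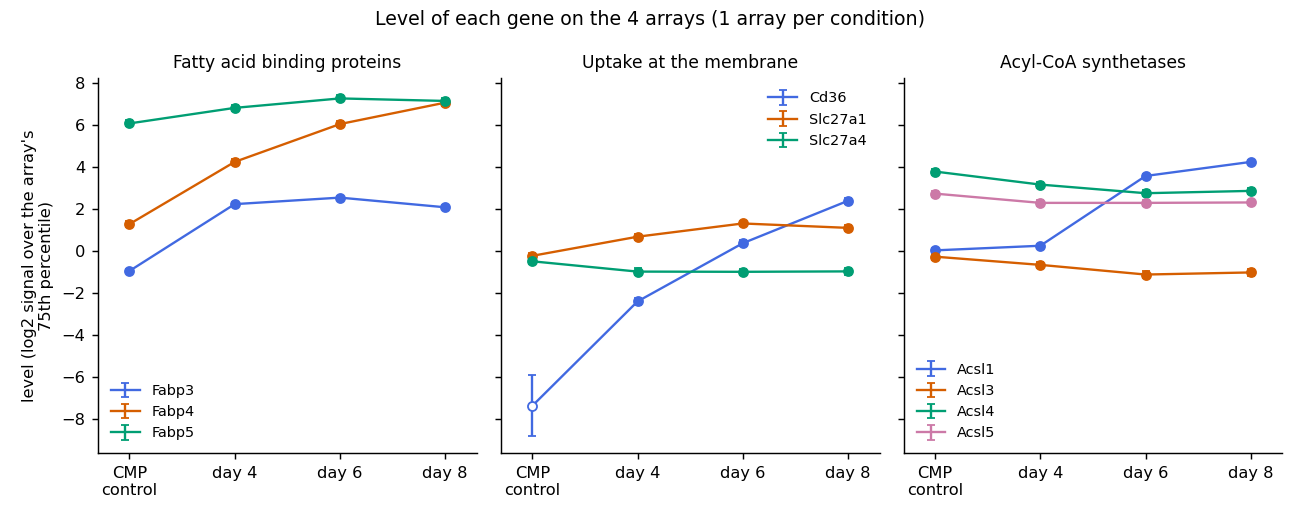
Level of each of the 10 genes on the 4 arrays (log2 signal over the array's 75th percentile), in 3 panels by role; each point is 1 array, bars are 1 SD from the error model and the open point marks a probe not well above background. Fabp4 and Cd36 climbed over all 3 days, Fabp3 was near its top by day 4, and Acsl1 was within 2 errors of its control level at day 4 and was high at day 6; heights of different genes are not comparable.

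Intracellular binding proteins formed the group with rises in every member by day 6. Of the 3 genes, 2 rose on day 4, 3 on day 6 and 3 on day 8, with median changes of 2.96, 3.49 and 3.03. Of all genes, 10.1%, 11.1% and 12.3% rose on those days. Binding proteins outside the 10 genes did not all share this course, and of the 3 measured, 1 rose and 1 fell at day 6.

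Fabp4, the binding protein of adipocytes and macrophages, had a level of 1.28 in the CMP control, 4.24 on day 4, 6.04 on day 6 and 7.06 on day 8, each ± 0.14. Every array was above the one before it by more than 2 errors. The change from the control was 2.96 ± 0.20 at day 4, a 7.77-fold rise, and 5.78 ± 0.20 at day 8, a 55.1-fold rise. It rose again between arrays of OSKM-CMPs, 3.5-fold from day 4 to day 6 and 2.03-fold from day 6 to day 8. Of the log2 change seen at day 8, 51.1% was in place at day 4 and 82.4% at day 6. Among 14879 genes measured on both arrays, 33 had a higher change from the control to day 8. Genes not well above background in the control are left out of this rank. Among those, Cd36, Cfd, Adipoq and Plin1 had lower bounds above 5.78. Its probe lies at chr3:10204452-10204511 on the minus strand of mm9.

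Fabp3, the binding protein of heart and skeletal muscle, followed another course. Its level was -0.95 in the control, 2.23 on day 4, 2.54 on day 6 and 2.08 on day 8, each ± 0.10. The control stood below the OSKM-CMP arrays by at least 3.03, while those 3 arrays lay within 0.46 of each other. The rise was 9.03-fold at day 4 (log2 change 3.18 ± 0.14), 11.2-fold at day 6 and 8.17-fold at day 8 (3.03 ± 0.14). The day 4 change was 104.8% of the day 8 change, and the step from day 6 to day 8 was -0.46 ± 0.14, within 2-fold. Fabp3 has 2 probes, which gave changes of 3.07 and 2.99 at day 8. They share a run of 51 bases and are not independent readings. The errors given for Fabp3 treat the 2 probes as independent and may be too small. Each probe alone had an error of 0.14 or 0.15 per array. The first 30 bases of the shared run are shown to make this overlap visible.
Fabp3 probes: taaaactgtatccaaagggtgctccaaggt
The first of these probes is placed at chr4:129992643-129992702 on the plus strand of mm9 and the other has no position in the array file.

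Fabp5, the epidermal binding protein, which adipocytes also carry, had the smallest rise of the 3. Its level was 6.07 in the control, 6.81 on day 4, 7.26 on day 6 and 7.14 on day 8, each ± 0.14. The control was the lowest array, while day 6 and day 8, and day 8 and day 4, differed by less than 2 errors. The change from the control was 0.74 ± 0.20 on day 4, 1.19 ± 0.20 on day 6 and 1.07 ± 0.20 on day 8. The day 8 fold of 2.1 had a 1 SD range of 1.82 to 2.42 that includes 2, and on the scale of the array median the day 8 change was 0.80, within 2-fold. Its probe lies at chr3:10016185-10016244 on the plus strand of mm9.

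At the membrane, Cd36 and Slc27a1 rose and Slc27a4 did not. Of the 3 genes, 1 rose on day 4, 2 on day 6 and 2 on day 8, with median changes of 0.91, 1.54 and 1.33. These medians are the changes of Slc27a1. Of all genes, 10.1%, 11.1% and 12.3% rose on those days, and 3 genes are few to set against such shares.

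Cd36, the scavenger receptor that also serves as fatty acid translocase, was not well above background in the CMP control, where its measured level was -7.37 ± 1.45. In OSKM-CMPs it was -2.40 ± 0.15 on day 4, 0.37 ± 0.14 on day 6 and 2.39 ± 0.14 on day 8. All 3 OSKM-CMP arrays were above background and each was higher than the one before. Since the control gives only a bound, the rise is at least 7.05-fold on day 4, at least 48.0-fold on day 6 and at least 195-fold on day 8. These bounds hold for background-subtracted signal, and with normexp correction and quantile normalization the log2 changes were 1.23, 3.34 and 5.29, below the log2 bounds of 2.82, 5.59 and 7.61. Between arrays that measured it, Cd36 rose 6.82-fold from day 4 to day 6 (log2 change 2.77 ± 0.21) and 4.07-fold from day 6 to day 8 (2.02 ± 0.20). Its 27.7-fold rise from day 4 to day 8 was exceeded by 15 of 15313 genes measured on both of these arrays, between which 3.67% of all genes rose and 3.25% fell. Its probe lies at chr5:17288600-17288659 on the minus strand of mm9.

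CD36 is also known in macrophages and endothelial cells, and FABP4 in macrophages, so their markers stand beside these rises. The summed linear level of 8 macrophage markers was 2.15 in the control, 1.54 on day 4, 1.59 on day 6 and 1.69 on day 8, with 8, 6, 7 and 7 of them above background. That of 8 endothelial markers was 2.11, 1.24, 1.28 and 1.17, with 8, 5, 5 and 5 above background. Cdh5, Emcn and Tie1 of the endothelial list were not well above background on any OSKM-CMP array, and neither was Tyrobp of the macrophage list. The other 5 endothelial markers were above background on all 4 arrays. Of these, Tek and Esam fell by day 8, while Pecam1, Kdr and Vwf stayed within 2-fold (changes of 0.10, -0.27 and 0.78). A few bright probes carry these sums, and the median changes from the control on the 3 days were -0.66, -0.41 and -0.42 for the macrophage list and -1.66, -2.15 and -2.21 for the endothelial list. The part of either list in the rises was not tested. Within these lists Cd68 rose 2.96-fold and Lyz2 fell 5.98-fold from the control to day 8.

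Slc27a1, the transport protein FATP1 of adipose tissue and muscle, had levels of -0.23 in the control, 0.68 on day 4, 1.31 on day 6 and 1.10 on day 8, each ± 0.14. The control was lowest, and day 6 and day 8 differed by less than 2 errors. The change was 0.91 ± 0.20 at day 4, just within 2-fold, then 1.54 ± 0.20 at day 6 (2.91-fold) and 1.33 ± 0.20 at day 8 (2.51-fold). Its probe lies at chr8:74110256-74110315 on the plus strand of mm9.

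Slc27a4, the related transport protein FATP4, did not share this rise. Its level was -0.49 ± 0.14 in the control, then -0.98, -0.99 and -0.97 on day 4, day 6 and day 8, each ± 0.15. The 3 OSKM-CMP arrays lay within 2 errors of each other, and the changes from the control were -0.50, -0.51 and -0.48, all within 2-fold. Its probe lies at chr2:29672983-29673042 on the plus strand of mm9.

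Of the acyl-CoA synthetases, which activate the fatty acid, 1 of 4 rose. The counts were 0 higher and 0 lower at day 4, 1 higher and 1 lower at day 6, and 1 higher and 0 lower at day 8, with median changes of -0.41, -0.64 and -0.58. Over all genes, 11.1% rose and 9.98% fell at day 6, and with 4 genes these counts cannot be told from those shares.

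Acsl1, the main isoform of adipocytes and heart, had levels of 0.03 in the control, 0.25 on day 4, 3.57 on day 6 and 4.24 on day 8, each ± 0.10. Each level is the mean of 2 probes, which read -1.65 and 1.70 in the control and 2.76 and 5.73 at day 8. The error does not cover that gap between probes. The control and day 4 arrays differed by less than 2 errors, and both stood more than 3 units below day 6 and day 8. The change from the control was 0.22 ± 0.15 at day 4, 3.54 ± 0.15 at day 6 (11.7-fold) and 4.21 ± 0.15 at day 8 (18.5-fold). From day 4 to day 6 it rose 10.0-fold (3.33 ± 0.14), and 19 of 15183 genes measured on both arrays had a higher change over that step. Day 4 held 5.2% of the day 8 change and day 6 held 84.1%. The 2 probes, whose starts are 1458 bases apart, at chr8:47619774-47619833 and chr8:47621232-47621291 on the plus strand of mm9, followed each other, with changes of 0.20 and 0.23 at day 4, 3.72 and 3.37 at day 6, and 4.40 and 4.02 at day 8.

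The remaining synthetases are ACSL3, found at the endoplasmic reticulum and lipid droplets, ACSL4, which prefers arachidonic acid, and ACSL5, known from intestine and liver. Acsl4 had levels of 3.78, 3.16, 2.75 and 2.86 from the control to day 8, each ± 0.14, with the control highest. In the order of levels, day 4 and day 8, and day 8 and day 6, differed by less than 2 errors. Its change was -0.62 ± 0.20 on day 4, -1.03 ± 0.20 on day 6 and -0.91 ± 0.20 on day 8. The day 6 value, a 2.04-fold fall with a 1 SD range of 1.77 to 2.35, was the one fall past 2-fold among the 10 genes. With quantile normalization it was -0.90, within 2-fold.

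Acsl3 had levels of -0.27, -0.66, -1.12 and -1.02 over the same arrays, and its changes from the control were -0.38 ± 0.20, -0.85 ± 0.21 and -0.75 ± 0.21. Acsl5 stood at 2.73 in the control and at 2.29, 2.29 and 2.31 in OSKM-CMPs, with changes of -0.44, -0.43 and -0.42, each ± 0.20. Both had their highest level in the control and stayed within 2-fold, and for Acsl3 no neighbours in the order of levels differed by 2 errors. With the array median as the scale, Acsl3 and Acsl4 had changes of -1.02 and -1.18 at day 8 and counted as falls, and the median of all genes then stood at -0.30. That scale moves every gene on an array by 1 constant, so the members' place among all genes stayed the same. The probes lie at chr1:78703500-78703559 (plus strand) for Acsl3, chrX:138752591-138752650 (minus strand) for Acsl4 and chr19:55368743-55369331 (plus strand) for Acsl5, all in mm9. The Acsl5 probe covers 589 bases of genome with 60 bases of sequence, so it spans at least 1 gap in the genomic alignment.

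The probe sequences of Acsl1 and Acsl5 are given because these isoforms catalyse the same reaction and moved apart.
Acsl1 probe at chr8:47619774-47619833: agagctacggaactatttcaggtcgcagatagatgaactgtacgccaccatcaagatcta
Acsl5 probe at chr19:55368743-55369331: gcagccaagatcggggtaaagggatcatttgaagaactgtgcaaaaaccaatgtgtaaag

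**Figure D2:**
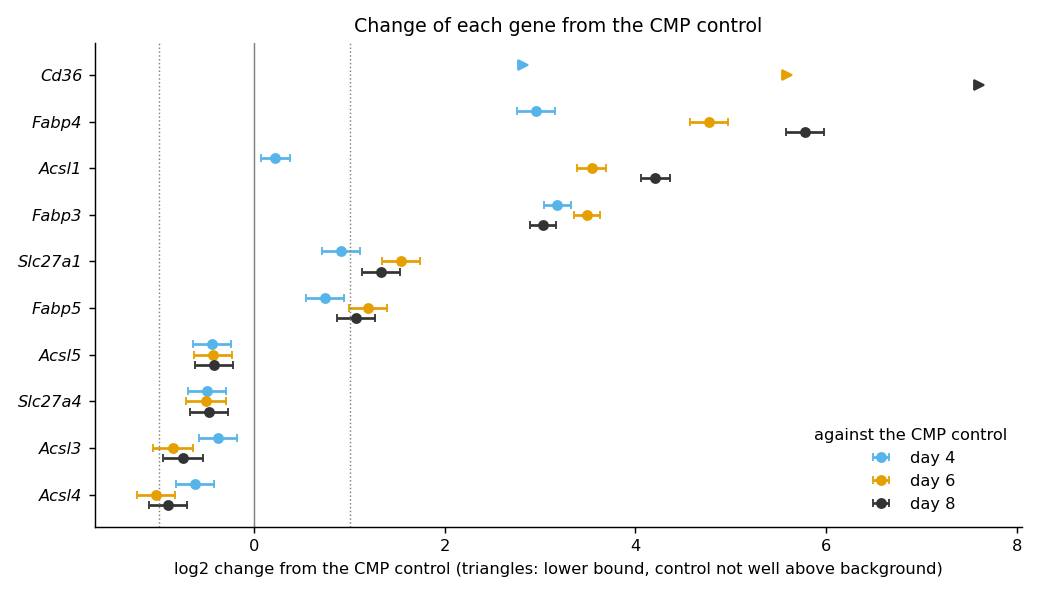
Log2 change of each of the 10 genes from the CMP control at day 4, day 6 and day 8, ordered by the change at day 8; bars are 1 SD from the error model, triangles are lower bounds for Cd36, whose control was not well above background, and dotted lines mark 2-fold. On the plot, 6 genes lie right of the 2-fold line at day 8, and Acsl4 alone crosses the left line, at day 6 with -1.03.

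The genes that rose did so on different days. Between day 4 and day 6, 3 of the 10 genes rose further and none fell, where 1.99% of all genes rose and 1.49% fell. They were Acsl1, Cd36 and Fabp4. Between day 6 and day 8, Cd36 and Fabp4 rose again and none fell, where 1.19% of all genes rose and 0.474% fell. The Fabp4 step of 1.02 ± 0.20 sits at the edge of 2-fold, and with the array median as the scale Cd36 alone passed. Fabp5 and Slc27a1 took steps of 0.45 and 0.63 from day 4 to day 6 and of -0.12 and -0.21 from day 6 to day 8, all within 2-fold. Of the genes measured on all 4 arrays that rose, Fabp3, Fabp4, Fabp5 and Slc27a1 had their largest step before day 4. Acsl1 had its largest step between day 4 and day 6. The interval before day 4 is longer than the later ones and also holds the virus and the medium change, so step sizes are not rates. Fabp3 and Acsl1 passed 2-fold in 1 interval each, and Fabp4 did so in all 3. The day 4 array enters the first 2 steps and the day 6 array the last 2, so the steps are not independent.

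**Figure D3:**
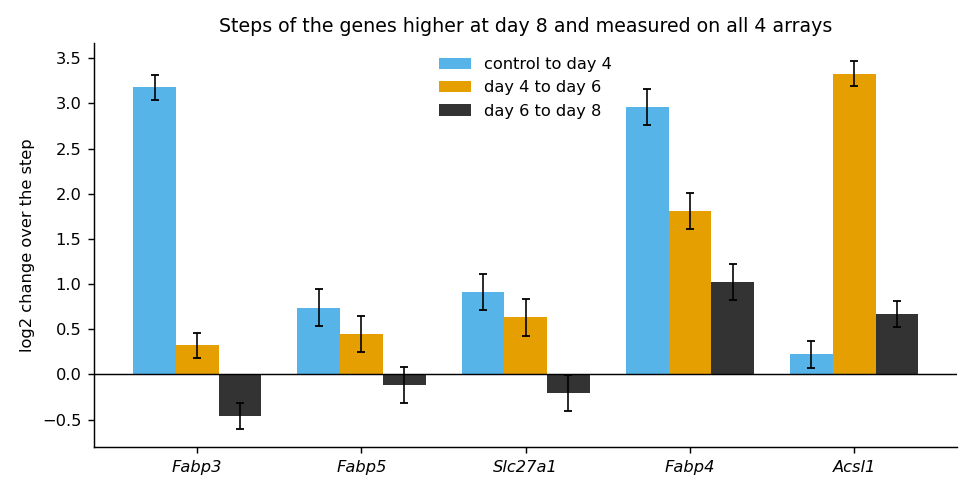
Log2 change over each interval (control to day 4, day 4 to day 6, day 6 to day 8) for the 5 genes that rose by day 8 and were measured on all 4 arrays; bars start at 0 and error bars are 1 SD from the error model. Fabp3 has 1 tall bar, to day 4 (3.18), and Acsl1 has 1 tall bar, from day 4 to day 6 (3.33). Fabp4 has 3 bars, with 2.96 over the first interval and 1.02 over the last. The first interval is longer than the later ones, so bar heights are not rates.

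Promoter sequence was examined because these genes rose on different days. The RefSeq table (GRCm38.p6) held a start for 8 of the 10 genes, with 11 windows of 250 bases before a start, and none for Fabp4 and Fabp5. Windows were searched on both strands for AGGTCA, the half-site bound by PPAR and RXR receptors, for its direct repeat with a spacer of any 1 base, which contains it, and for GGGCGG, the GC box. Of all 32851 promoters in the table, 14.0% held the half-site, 0.0335% the direct repeat and 32.7% the GC box. Of the 11 windows, 1 held the half-site, 0 the direct repeat and 7 the GC box. The windows of the 3 genes with the largest changes at day 8 that had a start are printed, with matches in capitals. A match is a description of the letters and not a site.
Cd36, chr5:17835897-17836146, minus strand: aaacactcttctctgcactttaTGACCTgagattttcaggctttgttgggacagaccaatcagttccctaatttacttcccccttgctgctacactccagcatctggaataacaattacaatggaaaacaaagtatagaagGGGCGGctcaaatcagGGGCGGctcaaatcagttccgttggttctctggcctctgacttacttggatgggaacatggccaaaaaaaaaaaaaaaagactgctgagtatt
Acsl1, first start, chr8:46470787-46471036, plus strand: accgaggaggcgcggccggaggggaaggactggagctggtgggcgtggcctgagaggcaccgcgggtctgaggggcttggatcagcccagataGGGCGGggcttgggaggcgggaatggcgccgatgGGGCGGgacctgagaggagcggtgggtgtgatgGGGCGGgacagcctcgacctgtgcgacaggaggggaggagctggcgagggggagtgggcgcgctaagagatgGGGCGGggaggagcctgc
Acsl1, second start, chr8:46490716-46490965, plus strand: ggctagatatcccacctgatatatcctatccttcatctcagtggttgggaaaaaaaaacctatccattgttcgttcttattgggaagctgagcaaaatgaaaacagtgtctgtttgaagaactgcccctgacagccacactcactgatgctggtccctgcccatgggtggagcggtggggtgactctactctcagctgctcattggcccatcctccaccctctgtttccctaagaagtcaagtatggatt
Fabp3, chr4:130308488-130308737, plus strand: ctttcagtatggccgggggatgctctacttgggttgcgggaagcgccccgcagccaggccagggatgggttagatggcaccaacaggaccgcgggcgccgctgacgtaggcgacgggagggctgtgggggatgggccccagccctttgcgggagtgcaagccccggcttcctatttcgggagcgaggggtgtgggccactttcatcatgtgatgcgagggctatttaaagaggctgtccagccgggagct
The Cd36 window held the half-site, read there as TGACCT on the opposite strand, and 2 GC boxes, in 43.2% G and C with 3 CpG pairs. The windows of Acsl1 differed from each other, the first with 72.0% G and C, 20 CpG pairs and 4 GC boxes and the second with 48.4%, 2 CpG pairs and no match. The Fabp3 window held 64.8% G and C, 17 CpG pairs and no match.

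The step before uptake was read from lipoprotein lipase and its partners, of which 6 were measured. At day 4, 2 rose and 1 fell, at day 6, 3 rose, and at day 8, 3 rose and 1 fell. Of all genes, 10.1% rose and 8.28% fell at day 4, 11.1% and 9.98% at day 6, and 12.3% and 10.6% at day 8. Lpl, which frees fatty acids from circulating triglyceride, had levels of 1.65 in the control, 0.02 on day 4, 4.35 on day 6 and 5.45 on day 8. It fell 3.08-fold at day 4 and then stood 13.9-fold above the control at day 8, and its lowest array was day 4. For each of the 6 members that rose, the lowest array was the control, though for Acsl1 day 4 lay within 2 errors of the control. Angptl4, a secreted inhibitor of this lipase, rose 7.31-fold at day 4 and was 4.2-fold up at day 8. Vldlr, a receptor for triglyceride-rich lipoprotein, rose 2.66-fold at day 8, and Lmf2, related to the lipase maturation factor, fell 2.02-fold.

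Genes of the same families outside the 10 are few, and their counts stand beside the same shares of all genes (12.3% higher and 10.6% lower at day 8). Of 7 other binding proteins, 3 were measured (Fabp1, Fabp6, Fabp9 and Pmp2 were not), with 1 higher at day 4, 1 higher and 1 lower at day 6, and 2 higher and 1 lower at day 8. Fabp2, the intestinal form, rose 2.7-fold at day 8, Fabp12 rose at least 2.48-fold and Fabp7, the brain form, fell at least 7.71-fold. Their levels were low, from -3.72 to -2.29 for Fabp2, from -6.26 to -3.91 for Fabp12 and from -2.36 to -5.75 for Fabp7. The lowest level well above background was -5.22 in the control and -5.31 at day 8. Of 4 other transport proteins, Slc27a3 and Slc27a5 were measured (Slc27a2 and Slc27a6 were not). Slc27a3 rose 2.06-fold at day 4 and had a change of 0.80 at day 8, within 2-fold. Of 13 other acyl-CoA synthetases, 10 were measured (Acsm2, Acsm4 and Acsm5 were not), with 1 higher on day 4, 2 on day 6 and 2 on day 8, and 0 lower on any day. Acss2, which makes acetyl-CoA in the cytosol, rose 4.23-fold at day 8 and Acss3 rose at least 3.42-fold. Acss3 was not well above background in the control and reached -3.44 at day 8.

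Caveolae and membrane partners of uptake, all 10 measured, had 1 higher and 4 lower at day 4, 1 higher and 4 lower at day 6, and 1 higher and 2 lower at day 8, with medians of -0.49, -0.56 and -0.60. The share of all genes that fell was 8.28%, 9.98% and 10.6%, and 1 rise in 10 genes is near the share that rose (10.1% to 12.3%). Cav3, the muscle caveolin, fell 13.8-fold at day 8, from a level of 2.09 to -1.70. Cavin2, a coat protein of caveolae, fell 2.13-fold, and Cavin4, its muscle relative, rose 2.47-fold. Cav1 and Cav2, the caveolins of most other tissues, had changes of -1.05 and -1.43 at day 6 and of -0.73 and -0.76 at day 8.

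Downstream, 19 of 20 acyl-CoA binding proteins and thioesterases were measured (Acot12 was not). Their counts were 0 higher and 1 lower at day 4, 1 and 1 at day 6, and 2 and 1 at day 8, and their median at day 8 was 0.04. These counts lie near or below the shares of all genes, which ran from 8.28% to 12.3%. Acot3, a peroxisomal thioesterase, rose 6.18-fold at day 8 and Them5 rose at least 2.71-fold, while Acot11 fell 2.81-fold. Them5 was not well above background in the control and reached -3.78 at day 8. Acot3 had levels of -4.60 in the control, -4.23 on day 4, -1.57 on day 6 and -1.97 on day 8, with the control and day 4 low and both later arrays high. Of 6 PPAR and RXR receptors, all measured, 1 rose on each day. Pparg, the receptor of adipocyte differentiation, had levels of 0.98, 4.63, 4.83 and 4.82, a rise of 12.5-fold at day 4 and of 14.3-fold at day 8. The other 5 receptors stayed within 2-fold on each day, with Rxrg furthest from 0 at day 8 (0.74).

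**Figure D4:**
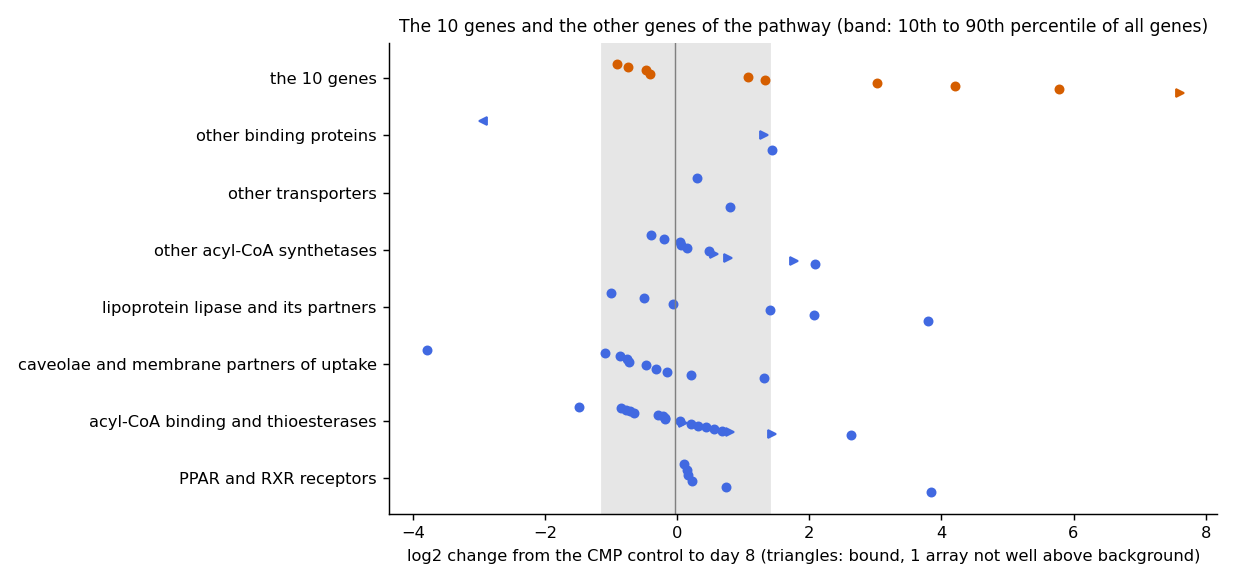
Log2 change from the CMP control to day 8 of the 10 genes and of 7 lists of related genes, 1 point per measured gene; triangles are bounds where 1 array was not well above background, and the grey band runs from the 10th to the 90th percentile of all genes (-1.14 to 1.40). The 10 genes fall into a group of 6 above 1 and a group of 4 between -0.91 and -0.42, while most genes of the other lists lie inside the band.

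Genes with a course like that of each member were sought among 14545 genes above background on all 4 arrays, by the Euclidean distance between their 3 log2 changes from the control. Far from 0 there are few genes of any course, so the number within a fixed distance falls with the size of the change and is not compared between members. Within a distance of 0.3, Fabp4 had 1 gene, Abi3bp, with changes of 3.06, 4.96 and 5.71, followed further off by Tspan33 and Enpp2. Acsl1 had 0 genes within 0.3, and the nearest were A530016L24Rik at 0.537, Gpat3 at 0.710 and Angptl8 at 0.994. Gpat3 had changes of 0.41, 2.92 and 3.93, within 2-fold at day 4 and high at day 6. Fabp3 had 3 genes within 0.3, Smpdl3b, Maf and 6330403K07Rik.

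Fabp5 had 149 genes within 0.3, the nearest being 2310040G24Rik, Ctns and Man2b1, and Slc27a1 had 56, led by Fam170b, Ifit2 and Cfap70. Slc27a4 had 1303 (Tiam1, Cdc73, Alg3), Acsl3 had 403 (Hspa2, Tlr7, Cnnm4), Acsl4 had 310 (Slc25a30, Ckap4, Kctd11) and Acsl5 had 1462 (Pomp, Mmachc, Pdxdc1). Cd36 was left out, since its control level is only a bound.

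Markers of cell types were read on the same arrays, where 12.3% of all genes rose and 10.6% fell at day 8. Of the adipocyte list, the rise from the control to day 8 was at least 3570-fold for Cfd, at least 2170-fold for Adipoq and at least 645-fold for Plin1. At day 4, when Fabp3 was near its top and Acsl1 near its control level, 6 of the 8 adipocyte markers had risen. In the mesenchymal list Dcn, Ly6a and Nt5e rose (8.32-fold, 6.47-fold and 4.29-fold at day 8) and Thy1 and Eng fell (3.43-fold and 2.28-fold). In the endothelial list 0 rose and 5 fell at day 8, with Cdh5 down at least 11.9-fold and Tek down 6.48-fold. Of 8 cardiomyocyte markers 6 were measured (Actn2 and Ttn were not), and their summed linear level was 12.0 in the control, 5.02 on day 4, 6.93 on day 6 and 4.33 on day 8. Myl2 and Tnni3 rose (3.15-fold and at least 3.28-fold) and Tnnt2 fell 3.03-fold. Most of that sum came from the Tnnt2 probe, and the median change of the 6 markers was 0.67, 0.71 and 0.85 on the 3 days. The part of this list in the changes of Fabp3 was not tested.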

How the data were processed

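Total RNA of 4 mouse samples, 1 array per condition, was labelled with Cy3 and hybridised to 1-colour Agilent arrays. The deposited scanner files hold, for each of 62976 spots, a processed signal (intensity) that the authors obtained with Feature Extraction by background subtraction. The version is 10.7.3.1 in the file headers and 9.5.3 in the submitters' processing notes. The authors' normalized table, made with GeneSpring, holds log2 values that equal the log2 processed signal shifted by a constant per array (SD of the difference 0.0).

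Control spots (3671) and outlier spots were left out, the spots of a probe were averaged on the log2 scale, and each array was set to 0 at its 75th percentile. Of 55675 probes with a usable spot on every array, 35540 were well above background on at least 1 array and were kept. Gene names came from the RefSeq table of GRCm38.p6, matched 26762 by accession, 3819 by symbol and 639 by synonym, while 24461 had no match. Where a gene had several kept probes their mean was used (5015 of 16657 genes). Positions of probes are given in mm9 as the scanner files list them. Where an array was dim, a fold was bounded with the lowest signal well above background on it, or the probe's own if higher. The number of arrays limits the precision, and no test between conditions was made.

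The members and lists were chosen with earlier results of these data known. Genes named from a list were the 3 largest rises and 2 largest falls past 2-fold at day 8, and the 3 nearest genes by course for each member. Slc27a3, Slc27a5, Cav1, Cav2, Rxrg and Retn were named after their values were seen, as were Lep, Emcn, Tie1 and Tyrobp as markers not above background. Pecam1, Kdr, Vwf and Esam, the other endothelial markers, were also named after their values were seen. The promoters and probes whose sequences are shown were also chosen after values were seen. Alternatives were the authors' values, scaling by the array median, quantile normalization with and without normexp correction (offset 50), dropping the filter on dim probes or asking for it on all 4 arrays, setting dim values to a floor, and using the brightest probe of a gene. The steps were tested on simulated data. Python 3.11.15, numpy 2.4.6, pandas 2.3.3, R 4.3.3 and limma 3.58.1 were used.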

Additional observations from a re-analysis of the deposited data

How the results depend on the processing

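No paired analysis was possible because no condition holds more than 1 array, and no array could be left out for the same reason. Over the 8 alternatives, 97 counts and medians of the 10 genes stayed within 1.5 times their count, or within the error of a change. A further 7 moved and 0 changed sign. Part of this agreement was fixed in advance. The authors' values are the same signal on nearly the same scale, so they could hardly move a change. Dropping the filter on dim probes could not move the 10 genes, since all their probes had passed it. Several counts of falls were 0 and stayed at 0. Of the changes and ranges of single genes, 277 stayed and 39 moved. With normexp correction and quantile normalization, and with quantile normalization alone, 0 of the 10 genes fell at day 6 in place of 1, since the Acsl4 change then lay within 2-fold. With the array median as the scale, 2 fell at day 8 in place of 0 (Acsl3 and Acsl4), 1 in place of 2 rose from day 6 to day 8, and the median change at day 8 was 0.93 in place of 1.20. The median of all genes was -0.15, -0.17 and -0.30 at day 4, day 6 and day 8 on that scale. With probes above background on all 4 arrays only, Cd36 dropped out, 1 gene rose from day 6 to day 8 and the median at day 4 was 0.22.

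For single genes, normexp correction with quantile normalization moved Cd36 most, to changes of 1.23, 3.34 and 5.29, and the cause was not tested. Its own bounds are 2.82, 5.59 and 7.61. Over all genes, the same pair of steps gave 855 rises and 785 falls at day 4 in place of 1679 and 1379, 988 and 961 at day 6 in place of 1847 and 1662, and 1052 and 1097 at day 8 in place of 2054 and 1768. Quantile normalization alone gave 1815 and 1920 at day 8. The array median gave 1546 rises and 2659 falls at day 8, so that 36.8% of the called genes rose in place of 53.7%, with 43.8% in place of 52.6% at day 6. Cd36 in the control lies under the lowest signal that counts as above background, so no upper limit of its fold is given.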
